A study of Homo sapiens with 16 samples.

Results

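Wild-type HCT116 cells, a human colon carcinoma line with an epithelial origin and an intact p53 pathway, were profiled by polyadenylated RNA sequencing at 48 h and at 96 h, with 3 libraries at each time. These 6 libraries are all the wild-type libraries of those times among the 16 libraries of the series, and they were chosen by their labels alone. The other libraries are wild-type cells at 24 h (2 libraries) and cells at 24, 48 and 96 h in which the long noncoding RNA NORAD was repressed by CRISPR interference, a catalytically dead Cas9 that blocks transcription, induced with doxycycline at 0.5 µg/ml. All cells were kept in McCoy's 5A medium with serum, pyruvate and glutamine, and each library came from a small number of cells. The labels give wild type as the only genotype of the 6 libraries. They do not say whether wild-type cells received doxycycline, whether the medium was changed, how dense the cultures were, when each library was made, or whether replicates were separate cultures. The p-values of the gene and transcript tests below set the difference between times against the scatter of libraries within groups. That scatter was estimated over all 16 libraries and could be technical. Time in culture cannot be told apart from anything else that differed between the 24 h, 48 h and 96 h sets.

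Cells that remain in one dish for days deplete nutrients and fill the surface. A proliferating epithelial culture is known to leave the cell cycle as it becomes dense. E2F factors then stop driving the genes of DNA synthesis, the DREAM and MuvB complexes repress mitotic genes, and FOXO factors and p53 turn on genes of quiescence and growth arrest. Ribosome production, protein folding capacity and lipid synthesis are adjusted in the same transitions, and serum or medium change is a known resetting signal for the circadian clock.

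The 6 libraries held 36610474 to 51853876 estimated counts each. Epithelial identity was checked with 10 markers: all 10 were in the table, 8 were above 1 CPM (counts scaled to the same library total), and their summed level was 7175 to 7530 CPM at 48 h and 5353 to 5889 CPM at 96 h. The marker sums of immune cells (11.8 to 15 CPM at 48 h, 18.1 to 23.8 at 96 h), fibroblasts (35.0 to 36.0 and 41.4 to 51.8, almost all from COL1A1, with LUM and POSTN at 0), endothelium (17.4 to 22.2 and 12 to 12.5) and neurons (240.3 to 257.4 and 272.9 to 301.3, mostly TUBB3, with STMN2 at 0) were small beside it. Transcripts with long runs of A or T, which were left out of every level, took 5.57, 4.96 and 5.06% of counts at 48 h and 3.04, 2.33 and 4.54% at 96 h. In the wild-type 24 h libraries they took 0.69 and 0.64%. The part played in the results by those differences was not tested, but the counts of changes from 48 h to 96 h were also recomputed with those transcripts kept. In bulk RNA of this kind, fewer cells of one state and less RNA per cell cannot be told apart.

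Of 19766 genes tested, 9140 (46.2%) passed an adjusted p of 0.05 in edgeR's quasi-likelihood test. At 96 h 5036 genes were higher (25.5%) and 4104 lower (20.8%), and the median log2 change over all tested genes was 0.04. That excess of rises was not kept under other scalings: the counts were 4710 and 4730 with abundance-dependent scaling, 4313 and 4837 with length-dependent scaling and 4552 and 4475 in DESeq2. A change of at least 2-fold past the same threshold was found for 1733 genes that rose (8.77%) and 565 that fell (2.86%), or 1260 and 886 with abundance-dependent scaling. All 3 libraries of 96 h lay above all 3 of 48 h for 6280 genes (31.8%) and below them for 5204 (26.3%). The shares of 25.5% and 20.8% are the background against which each gene list below is read. The lists were set out by known function, but with earlier results of these data known. Members that did not pass are counted with each list.

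The largest rise of an abundant RNA was that of SAT1 (ENSG00000130066, chrX:23783173-23786226, plus strand, GRCh38, GENCODE 29), the spermidine and spermine acetyltransferase that starts polyamine breakdown. SAT1 stood at 283, 272 and 290.4 CPM in the 3 libraries of 48 h and at 2619.7, 2908 and 2974 CPM in those of 96 h. Its log2 change was 3.33 ± 0.09 (SE; edgeR adjusted p = 7.22e-16), and the lowest 96 h library was far above the highest 48 h library. The 24 h libraries, at 1108 and 1017 CPM, lay between them. SESN3, a sestrin that restrains mTORC1 and is a FOXO target, had the largest rise on the log2 scale among genes with a mean of at least 5 CPM and no overlap between the sets, from 0.711, 0.69 and 0.929 CPM to 8.34, 10.4 and 9.26 CPM, a log2 change of 3.58 ± 0.20 (edgeR adjusted p = 2.07e-11). TP53INP1, a p53-induced regulator of autophagy and cell death, rose from 4.67, 5.3 and 4.47 CPM to 40.9, 40.6 and 39.2 CPM, with a log2 change of 3.06 ± 0.10 (edgeR adjusted p = 4.67e-15).

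The other large rises spanned signalling, adhesion and metabolism. SYNPO, an actin-binding protein, changed by 3.12 on the log2 scale. PNRC1, a nuclear receptor coactivator, changed by 2.87, and SEMA6B, a semaphorin, by 2.78, although its 48 h libraries spread over 2.29, 6.82 and 1.04 CPM. H6PD, which makes NADPH inside the endoplasmic reticulum, rose by 2.69, OLFM2, an olfactomedin, by 2.61, ARRDC4, an arrestin-domain protein under MondoA control, by 2.61, and ADGRA2, an adhesion receptor, by 2.59. TNXB, a matrix tenascin (2.53), NALT1, a long noncoding RNA (2.5), AHNAK2, a giant scaffold protein (2.49), KLHL24, a ubiquitin ligase adaptor (2.47), and PPFIA4, a liprin (2.43), completed the 15 largest rises. TNXB overlaps ATF6B on the same strand and CYP21A2 on the other, so reads could be split between them by the counting. Among genes with a mean of at least 100 CPM the next largest rises after SAT1 were those of GDF15, SCD, CYP24A1, NIPSNAP1, a mitochondrial protein (1.73), and SREBF2, and 4 of these return below with their lists.

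The largest falls included keratins, and several RNAs whose reads overlap other genes. KRT6A (ENSG00000205420, chr12:52487174-52493257, minus strand), a keratin of activated and wounded epithelium, stood at 17.3, 16.3 and 15.9 CPM at 48 h and at 0.306, 0.612 and 0.377 CPM at 96 h. Its log2 change was -5.23 ± 0.26 (edgeR adjusted p = 4.37e-12), and at 24 h it had stood at 1.09 and 0.604 CPM, so 48 h was the high point of the 3 times. KRT80 fell from 9.4, 9.72 and 10.5 CPM to 1.44, 0.908 and 0.755 CPM, a log2 change of -3.24 ± 0.21 (edgeR adjusted p = 7.38e-11). GAL, the neuropeptide galanin, fell from 171, 175 and 162 CPM to 52.6, 48.2 and 45.4 CPM, a log2 change of -1.80 ± 0.08 (edgeR adjusted p = 5.30e-13).

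AC006064.4, an antisense RNA over GAPDH, was listed at 37.4, 62.2 and 13.2 CPM at 48 h and 0.655, 0 and 0.277 CPM at 96 h, and because it overlaps a very abundant gene its level is uncertain. ZACN, an ion channel gene, was at 38.1, 27.2 and 43.6 CPM against 0.546, 0.38 and 0.78 CPM, and it overlaps SRP68, EXOC7 and GALR2. AC011511.4 overlaps RAVER1 and FDX2 on its own strand and fell by 3.11 on the log2 scale, with 48 h libraries at 27.8, 20.8 and 39.2 CPM. HINT3, a nucleotide-binding protein, was uneven: 728, 823 and 901 CPM at 48 h, 288, 178 and 153 CPM at 96 h, and 8664 and 3269 CPM in the 24 h libraries. HSPA4, an Hsp70 cochaperone, was also uneven at 14.4, 9.91 and 20.9 CPM against 3.58, 5.09 and 3.02 CPM, a log2 change of -1.94 ± 0.40 (edgeR adjusted p = 0.00211). RECQL4, a replication helicase (-1.73), CYB561D2 (-1.71), the long noncoding RNA CYTOR (-1.70), KRTAP2-3, a keratin-associated protein (-1.70), GPATCH4, a nucleolar protein (-1.68), SKA3, a kinetochore protein (-1.65), and CLSPN, a replication checkpoint adaptor (-1.64), made up the rest of the 15 largest falls. Among genes of at least 100 CPM the next falls were those of SDF2L1, ATAD3B, a mitochondrial ATPase (-1.55), and BCYRN1, a small noncoding RNA of neurons and tumours (-1.52).

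**Figure D1:**
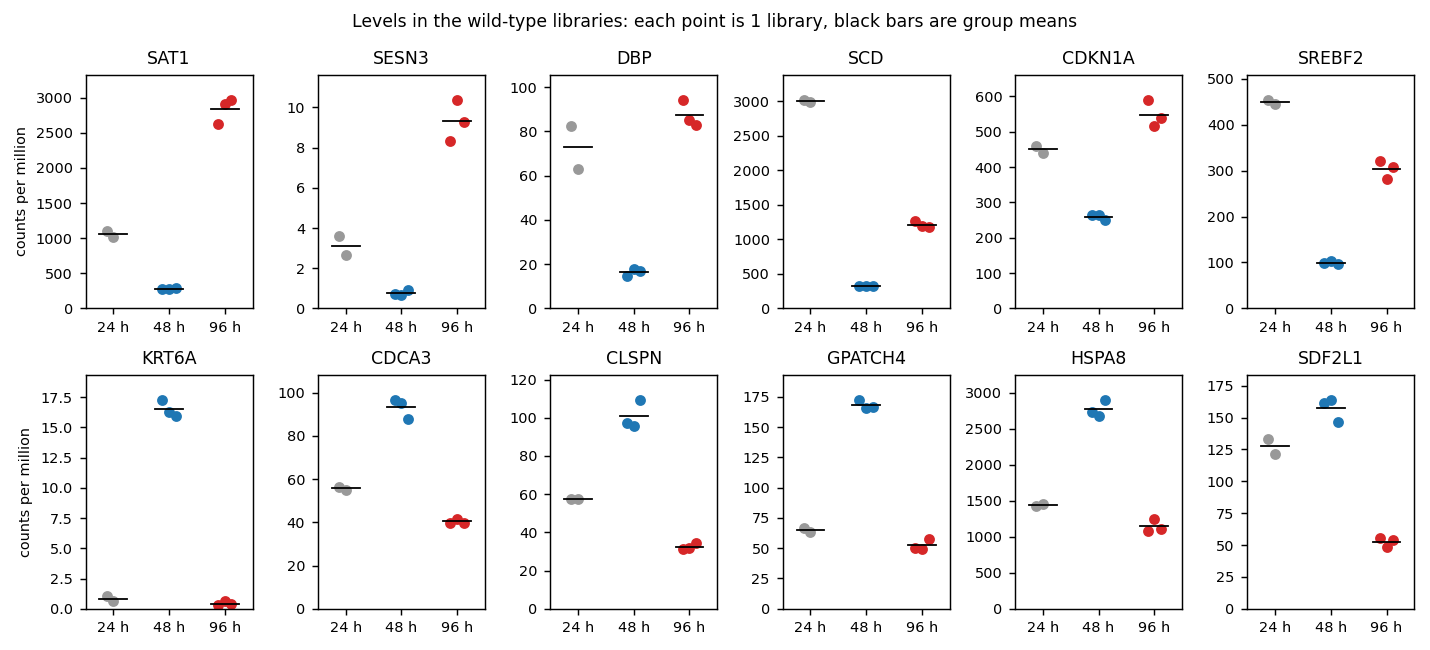
CPM (vertical axis, linear, starting at 0) of 12 genes in each wild-type library at 24, 48 and 96 h, with a point for each library and a black bar for the group mean. In all 12 panels the 48 h and 96 h libraries do not overlap, but the genes were picked for non-overlap or for low p. Over all tested genes 31.8% lay fully above at 96 h and 26.3% fully below. For SAT1 the 48 h libraries sit at 283, 272 and 290.4 CPM and the 96 h libraries at 2619.7, 2908 and 2974 CPM. For KRT6A the 24 h libraries sit at 1.09 and 0.604 CPM, near those of 96 h.

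Genes of DNA synthesis fell together. Of 49 replication genes tested, 47 were lower at 96 h, 0 were higher and 2 did not pass, with a median log2 change of -0.81. GINS2, a subunit of the replicative helicase, went from 120.1, 124 and 121 CPM to 54.3, 49.7 and 50.3 CPM, a log2 change of -1.24 ± 0.07 (edgeR adjusted p = 2.96e-11). CLSPN, which relays stalled-fork signals to CHK1, went from 97.4, 95.5 and 109 CPM to 31.1, 31.7 and 34.3 CPM, and its change was -1.64 ± 0.10 (edgeR adjusted p = 4.62e-11). CDC45, the helicase cofactor that fires origins (-1.26), and CHAF1A, which loads histones behind the fork (-1.15), fell by similar amounts. The members that did not pass were PRIM2 (-0.79), a primase subunit, and RPA3 (-0.07), a subunit of the single-strand binding complex.

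Repair genes that act with replication followed. Of 38 repair genes 29 fell and 3 rose, with a median of -0.69. EXO1, a resection nuclease, fell from 42.1, 42.5 and 45.6 CPM to 18.6, 20.1 and 20.9 CPM, RAD54L, a motor of strand exchange, from 45, 51.9 and 47 CPM to 22.2, 21.2 and 23.4 CPM, RAD18, a ubiquitin ligase of stalled forks, by 0.97 and FANCI, of the Fanconi anaemia pathway, by 0.95 on the log2 scale. The 3 members that rose, named after their values were seen, were the checkpoint kinases ATR (0.59) and ATM (0.40) and the mismatch repair gene PMS2 (0.25). The PMS2 call was lost without 48 h replicate 3 (adjusted p 0.064) or 96 h replicate 2 (0.0604), and under length-dependent scaling the ATM change was 0.08 and did not pass.

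Replication-dependent histone mRNAs normally lack a poly(A) tail, so a polyadenylated library holds only a part of them. Of 19 that could be tested, 3 fell and 1 rose, and in a fit without knockdown 48 h replicate 3 the falls numbered 9. HIST1H4C stood at 12.6, 12.4 and 15.3 CPM at 48 h and 4.48, 6.44 and 6.21 CPM at 96 h, HIST2H2AC changed by -0.99 and HIST1H2AC by 0.88, a rise that did not pass under abundance-dependent scaling (0.59, adjusted p 0.068). The fall of HIST1H1E, by 2.80, had edgeR adjusted p = 0.0353, and it no longer passed when any 1 of the 6 libraries was left out (adjusted p 0.0598 to 0.0976).

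Mitotic genes fell as a body, by less than 2-fold in most cases. Of 50 mitosis genes 47 were lower and 1, the phosphatase CDC25B (0.42), was higher, with ECT2 (-0.26) and ASPM (-0.08) not past the threshold and a median log2 change of -0.75. UBE2C, which carries ubiquitin for the anaphase-promoting complex, fell from 333, 328 and 341 CPM to 138, 143 and 123 CPM, a log2 change of -1.31 ± 0.08 (edgeR adjusted p = 3.59e-11). AURKB, the kinase of the chromosomal passenger complex, fell from 169.8, 166 and 155 CPM to 74.9, 69.9 and 73.2 CPM, a log2 change of -1.17 ± 0.07 (edgeR adjusted p = 3.68e-11). CDCA3, a trigger of mitotic entry, fell from 96.6, 95.1 and 88 CPM to 39.8, 41.7 and 39.7 CPM, a log2 change of -1.21 ± 0.07 (edgeR adjusted p = 1.81e-11). TACC3, a spindle microtubule protein, changed by -0.90.

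Most of the promoters found for these mitosis genes held a short sequence that the grouping did not use. The cell cycle homology region, TTTGAA, is the element through which MuvB complexes are known to bind late cell cycle genes. It was searched on both strands in the 250 bases before and 50 bases after the start of each gene in RefSeq (GRCh38.p14), where 12692 of 19748 tested gene symbols had a promoter. TTTGAA occurred in 10.3% of all of these promoters, in 18.9% of those of genes called at least 2-fold lower and in 8.67% of those called at least 2-fold higher. It occurred in 29 of 43 mitosis promoters (67.4%), and in 17 of the 43 a match started in the 50 bases before the gene start, against 1.54% of all promoters. DNA replication promoters held it in 1 of 41 cases. They held TTTCCCGC, the E2F site, in 10 of 41 (24.4%), against 2.40% of all. The windows of AURKB and TACC3, which fell, held no TTTGAA, and those of ECT2 and ASPM, which did not pass, held it. A match is a description of letters and shows no binding. The promoters of 2 members with a match near the start are shown, with the match in capitals, because the mRNA of both fell by more than 2-fold.
CDCA3 (chr12:6851237-6851536, minus strand): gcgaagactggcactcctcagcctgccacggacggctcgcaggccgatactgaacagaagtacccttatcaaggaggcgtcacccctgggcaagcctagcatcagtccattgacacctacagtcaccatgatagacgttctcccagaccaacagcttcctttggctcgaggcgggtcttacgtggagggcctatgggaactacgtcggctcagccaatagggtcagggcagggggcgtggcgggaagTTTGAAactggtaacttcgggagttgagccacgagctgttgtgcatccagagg
PLK1 (chr16:23678639-23678938, plus strand): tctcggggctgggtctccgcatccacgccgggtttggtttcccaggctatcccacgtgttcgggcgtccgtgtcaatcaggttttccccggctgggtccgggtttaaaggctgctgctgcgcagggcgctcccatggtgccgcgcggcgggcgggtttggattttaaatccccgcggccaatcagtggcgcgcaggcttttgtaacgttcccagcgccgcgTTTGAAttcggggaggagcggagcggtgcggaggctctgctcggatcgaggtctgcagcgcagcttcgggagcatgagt
In CDCA3 the match starts 3 bases before the gene start, and in PLK1, which encodes the polo-like kinase of mitotic entry and fell by 1.06 on the log2 scale, 29 bases before it.

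**Figure D2:**
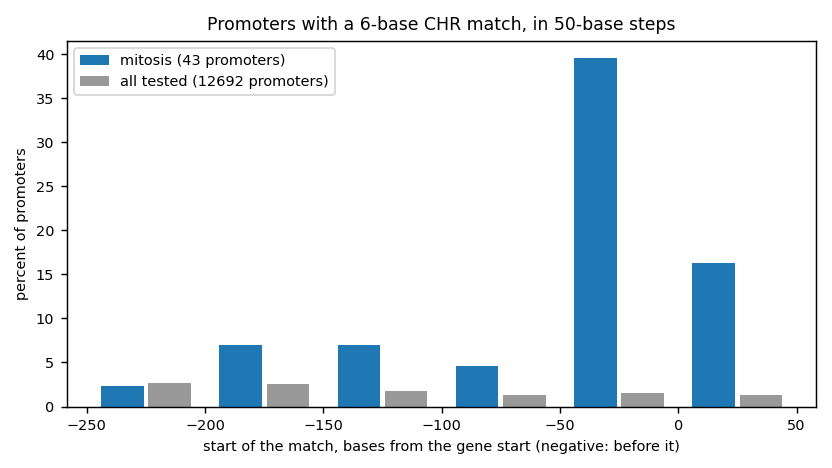
Share of promoters (vertical axis, percent) in which a match to the cell cycle homology region starts, by position in 50-base steps from the gene start (horizontal axis), for 43 mitosis genes in blue and all 12692 tested genes with a promoter in grey. The mitosis genes reach 39.5% in the step just before the start, where all promoters have 1.54%.

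Genes of growth arrest rose while those of division fell. Of 28 quiescence and FOXO target genes, 25 were higher, 0 were lower and 3 did not pass, with a median log2 change of 1.07. MXD4, a MAX partner that opposes MYC at its sites, rose from 16.2, 17.2 and 16.1 CPM to 78.9, 73.6 and 76.4 CPM, a log2 change of 2.21 ± 0.07 (edgeR adjusted p = 4.67e-15). YPEL5, a small zinc-binding protein of the CTLH ubiquitin ligase, rose from 11, 10.8 and 11.1 CPM to 33, 34.9 and 31.7 CPM, a log2 change of 1.60 ± 0.09 (edgeR adjusted p = 1.88e-11). ARRDC4 and SESN3, already described, belong here too. The 3 that did not pass were CDKN1B (-0.20), CITED2 (0.34) and SOD2 (-0.04).

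Targets of p53 moved upward in most but not all cases. Of 39 targets 24 rose, 4 fell and 11 did not pass, with a median of 0.56. CDKN1A, the cyclin-dependent kinase inhibitor p21, stood at 264, 264 and 249 CPM at 48 h and 591, 515 and 539 CPM at 96 h, a log2 change of 1.08 ± 0.08 (edgeR adjusted p = 9.09e-10). GDF15, a secreted stress cytokine, went from 67.6, 69.8 and 66.6 CPM to 269, 247 and 266 CPM, a log2 change of 1.94 ± 0.11 (edgeR adjusted p = 6.65e-11). BBC3, the proapoptotic protein PUMA, rose from 13.8, 15.2 and 14.3 CPM to 53.9, 51.2 and 52.5 CPM, a log2 change of 1.87 ± 0.09 (edgeR adjusted p = 1.63e-12). The 4 targets that fell, named after their values were seen, were TNFRSF10A (-0.55), a death receptor, TRIAP1 (-0.47), PMAIP1 (-0.43), the proapoptotic protein NOXA, and AEN (-0.38), a nuclease, while MDM2 (-1.12), BAX (0.08) and FAS (-0.16) did not pass.

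Clock genes had one of the highest list medians. Of 20 tested, 14 rose, 2 fell and 4 did not pass, with a median log2 change of 1.14. DBP, an output transcription factor driven through E-boxes by CLOCK and BMAL1, stood at 14.6, 17.8 and 16.7 CPM at 48 h and 94.4, 85.2 and 83.1 CPM at 96 h, a log2 change of 2.42 ± 0.12 (edgeR adjusted p = 4.37e-12). PER3, of the repressing limb, rose from 1.64, 2.13 and 2.9 CPM to 12.6, 11.8 and 11.4 CPM, a log2 change of 2.42 ± 0.15 (edgeR adjusted p = 6.84e-11). TEF, related to DBP, changed by 1.63 and BHLHE41, a repressor that competes at E-boxes, by 1.98. The members that fell, named after their values were seen, were ARNTL, which encodes BMAL1 of the activating limb (-0.68), and NFIL3, a repressor that opposes DBP (-0.56). The ARNTL call had edgeR adjusted p = 0.043 and was lost when any 1 of the 6 libraries was left out (adjusted p 0.0506 to 0.154). One sampling at each time gives no phase, and the labels do not give the clock hours.

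The E-box CACGTG is the site that CLOCK and BMAL1 bind. Searched on both strands as above, it occurred in 9.58% of all tested promoters. The share was 9.45% for genes called at least 2-fold higher and 12.3% for those called at least 2-fold lower. Of the 18 clock promoters found, 5 held it (27.8%). The lysosome and autophagy list held it about as often, in 7 of 26 promoters (26.9%), and the windows of DBP and PER3 held none. CIART, a clock repressor that rose by 1.89 on the log2 scale, is shown because its promoter held 3 matches, in capitals.
CIART (chr1:150282304-150282603, plus strand): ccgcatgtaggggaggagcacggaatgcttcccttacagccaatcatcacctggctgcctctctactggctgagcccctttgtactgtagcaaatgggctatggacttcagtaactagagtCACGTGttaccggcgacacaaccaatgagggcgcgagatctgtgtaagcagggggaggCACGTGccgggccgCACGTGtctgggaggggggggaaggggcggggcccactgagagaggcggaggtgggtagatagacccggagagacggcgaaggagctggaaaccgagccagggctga
The matches start 129, 71 and 57 bases before the gene start. The other clock promoters with a match were those of TEF, BHLHE41, BHLHE40 and PER1, with 1 each.

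**Figure D3:**
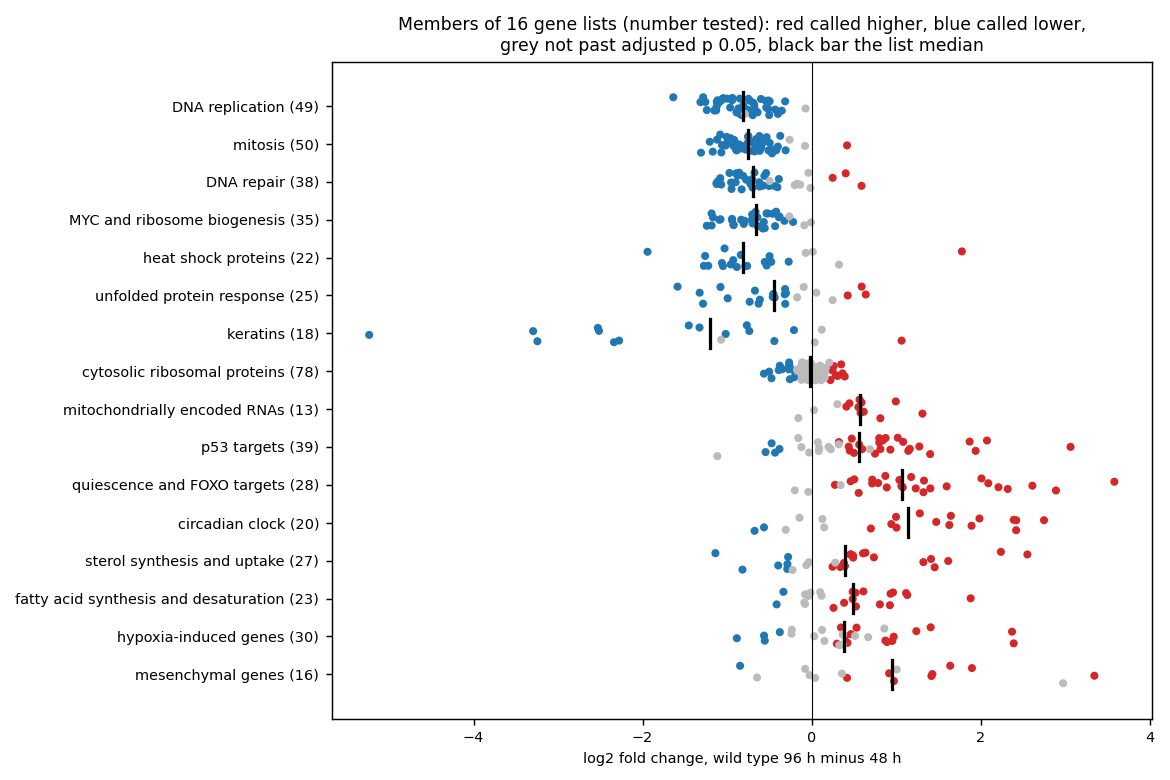
Log2 fold change from 48 h to 96 h (horizontal axis) of each tested member of 16 gene lists, with red points called higher, blue called lower, grey not past the threshold and a black bar at the list median. The medians run from -1.20 for keratins to 1.14 for the clock list, and cytosolic ribosomal proteins centre on -0.02.

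Sterol synthesis and uptake is controlled by SREBP2, which is released when membrane cholesterol is low. Of 27 genes of this list 17 rose and 6 fell, with a median of 0.39. SREBF2 itself rose from 98.2, 102 and 96.1 CPM to 320.2, 281 and 307 CPM, a log2 change of 1.61 ± 0.10 (edgeR adjusted p = 1.30e-10). TM7SF2, a sterol reductase, changed by 1.45, and TMEM97, a sterol-regulated membrane protein, fell by 1.14.

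Levels at 24 h put these rises in scale. SREBF2 stood at 454 and 445 CPM in the 24 h libraries, and the sterol list as a whole had changed by a median of -2.11 from 24 h to 48 h, a comparison that uses the same 48 h libraries.

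Fatty acid genes rose more often than they fell. Of 23 tested, 14 rose and 2 fell, with a median of 0.48, and with length-dependent scaling 11 rose and 4 fell, with a median of 0.27. SCD, the stearoyl-CoA desaturase, went from 331, 331 and 328 CPM to 1267, 1191 and 1182 CPM, a log2 change of 1.88 ± 0.13 (edgeR adjusted p = 1.72e-09), and had stood at 3026 and 2991 CPM at 24 h. SREBF1 (0.93), the fatty acid counterpart of SREBF2, FADS1 (0.92), a polyunsaturated fatty acid desaturase, and LPIN1 (0.96), a phosphatidate phosphatase, rose by less.

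Hypoxia-induced genes rose in part and remained far under their 24 h levels. Of 30 tested, 14 rose, 4 fell and 12 did not pass, with a median of 0.38 from 48 h to 96 h and -2.07 from 24 h to 48 h. Without 96 h replicate 1 or 96 h replicate 2 the rises numbered 9. BHLHE40, a repressor induced by HIF and by the clock, stood at 552 and 515 CPM at 24 h, 22.8, 24.2 and 21.4 CPM at 48 h and 129, 120.0 and 109 CPM at 96 h. DDIT4, an mTORC1 inhibitor also induced by the integrated stress response, stood at 917 and 739.7 CPM at 24 h, 20.8, 19.7 and 19.2 CPM at 48 h and 117, 103 and 88 CPM at 96 h. KDM3A (0.95) and KDM4B (0.89), histone demethylases, rose from 48 h to 96 h, and ADORA2B, an adenosine receptor, fell by 0.89. For all 5 the 48 h and 96 h libraries did not overlap, as for 31.8% of all tested genes above and 26.3% below. List members were named mainly for low p, which favours such a separation.

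Glycolysis genes had no common direction. Of 20 tested, 5 rose and 2 fell, with a median of 0.04 and a summed level of 15930.0, 16013 and 15952 CPM at 48 h and 16584, 16173 and 14855 CPM at 96 h. The counts were 9 and 1 with abundance-dependent scaling, 7 and 7 with the 6 wild-type libraries alone, and 7 and 5 without knockdown 48 h replicate 3. ALDOC, an aldolase induced by low oxygen, rose from 22.7, 20.4 and 19.6 CPM to 72.4, 67.8 and 62.8 CPM after 461 and 378 CPM at 24 h. The phosphofructokinase genes moved in opposite directions, PFKL by 0.70 and PFKP by -0.50.

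Protein folding genes fell in both compartments. Of 22 cytosolic chaperone genes 18 fell and 1 rose, with a median of -0.81 and a summed level that went from 18701, 18205 and 19279 CPM to 10626, 11174 and 10806 CPM. HSPA8, the constitutive Hsp70, went from 2734, 2675 and 2900.2 CPM to 1082, 1244 and 1105 CPM, a log2 change of -1.28 ± 0.09 (edgeR adjusted p = 5.26e-10). AHSA1, which activates the ATPase of Hsp90, fell from 405, 389 and 383 CPM to 168, 156 and 167 CPM, a log2 change of -1.26 ± 0.07 (edgeR adjusted p = 3.02e-11), and the Hsp40 genes DNAJB1 and DNAJA1 fell by 1.05 and 1.06. The member that rose, named after its value was seen, was CRYAB (1.78), a small heat shock protein of the lens and of stressed muscle, whose call was lost without 48 h replicate 2 (adjusted p 0.162), 48 h replicate 3 (0.131), 96 h replicate 1 (0.0663) or 96 h replicate 3 (0.231).

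In the endoplasmic reticulum 18 of 25 unfolded protein response genes fell and 3 rose, with a median of -0.45. SDF2L1, which keeps the Hsp70 cycle of that compartment running, fell from 162, 164 and 147 CPM to 55.4, 48.2 and 53.6 CPM, a log2 change of -1.59 ± 0.09 (edgeR adjusted p = 9.21e-12). MANF, a secreted chaperone-like factor, fell from 163, 156 and 157 CPM to 65.2, 65.8 and 64.4 CPM, a log2 change of -1.29 ± 0.07 (edgeR adjusted p = 6.76e-12), DNAJB11 by 1.33 and CALR, the lectin chaperone calreticulin, by 1.08. The members that rose, named after their values were seen, were EDEM1 (0.64), which sorts misfolded glycoproteins, ERN1 (0.59), the sensor IRE1, and CRELD1 (0.43).

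The integrated stress response, run by ATF4, had no common direction: 13 of 34 rose and 13 fell, with a median of 0.06. ASNS, asparagine synthetase, rose from 54.7, 52.8 and 58.2 CPM to 81.7, 88.9 and 80.8 CPM, and ATF5 fell from 67, 70.3 and 67.5 CPM to 31, 30.6 and 32.6 CPM. Of 20 cytosolic aminoacyl-tRNA synthetases 4 rose, among them AARS (0.64), and 5 fell, among them FARSA (-0.77), HARS (-0.74) and WARS (-0.62), while abundance-dependent scaling gave 8 rises. NRF2 targets were split as well, with 7 of 29 higher and 10 lower, or 5 lower without 48 h replicate 1 and 6 without 96 h replicate 3. NQO1, a quinone reductase, rose from 249.7, 249 and 245 CPM to 406, 409 and 381 CPM, ABCC3, an export pump, by 1.33 and AKR1C3 by 1.86, while GCLM, of glutathione synthesis, fell from 46.5, 42.4 and 44.8 CPM to 18.4, 20.4 and 15.8 CPM.

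Ribosome production genes fell, and ribosomal protein genes had no common direction. Of 35 MYC target and ribosome biogenesis genes 32 fell and 0 rose, with a median of -0.66. LYAR, a nucleolar growth regulator, fell from 142, 133 and 142 CPM to 57.7, 61.1 and 64.5 CPM, a log2 change of -1.18 ± 0.08 (edgeR adjusted p = 7.84e-11). GRWD1, a ribosome assembly chaperone, fell from 164, 165 and 151 CPM to 70.2, 66 and 67.2 CPM, a log2 change of -1.24 ± 0.08 (edgeR adjusted p = 1.49e-10). TCOF1, the treacle protein of rRNA transcription, fell by 1.17 and NME1, a nucleoside diphosphate kinase, by 1.18. NME1 shares bases with the readthrough gene NME1-NME2 on the same strand, so its level is uncertain. MYC itself (-0.26), HEATR1 (-0.09) and CAD (-0.01) did not pass. Of 78 ribosomal protein genes 9 rose, 13 fell and 56 did not pass, with a median of -0.02 and changes between -0.57 for FAU and 0.39 for RPL4. These counts depended on the scaling, with 24 rises, 6 falls and a median of 0.11 under abundance-dependent scaling, and on single libraries, with 5 rises without 48 h replicate 1 or 2 and 4 without 96 h replicate 2. Ribosomal protein genes have many near-identical processed copies, and the counting could split reads among them.

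RNA of the mitochondrial genome took a larger share of the libraries at 96 h. Mitochondrially encoded genes held 11.4, 11 and 11.7% of counts in the 48 h libraries and 16, 17 and 16.6% in those of 96 h, after 4.92 and 5.08% at 24 h. The sets did not overlap, and the exact two-sided permutation test gave p = 0.1, the smallest that 3 against 3 allows. Of 13 of these RNAs tested 10 rose and 0 fell, with a median of 0.56. MT-ND5, a subunit of complex I, went from 3806, 3847 and 3800.0 CPM to 7391, 8162 and 7256 CPM, a log2 change of 0.99 ± 0.09 (edgeR adjusted p = 1.58e-08), while MT-ND1 (-0.16), MT-ND2 (0.03) and MT-ND3 (0.30) did not pass. The nuclear genes of the respiratory chain had no common direction: 7 of 48 rose, 16 fell and the median was -0.07, but 18 rose, 6 fell and the median was 0.03 with abundance-dependent scaling. NDUFA9 (-0.70) and NDUFS3 (-0.68) of complex I were among those that fell, and UQCRC2 of complex III was among those that rose (0.52).

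Keratins, the intermediate filaments of epithelium, had the lowest median of the 44 lists. Of 18 tested 14 fell and 1 rose, with a median of -1.20. Among the 12 with at least 1 CPM in 3 libraries the median was -0.74, no longer the lowest. Beyond KRT6A and KRT80, the falls included KRT6B (-3.29), KRT14 (-2.53) and KRT5 (-2.52) of basal and wounded epithelium, all named after their values were seen. Keratins of simple epithelium fell by less. KRT8 stood at 2914, 2894 and 2841 CPM at 48 h and 1805, 1664 and 1715 CPM at 96 h, a log2 change of -0.74 ± 0.08 (edgeR adjusted p = 9.37e-08), and KRT18, its partner, fell by 0.44. KRT19 fell by 0.21 (edgeR adjusted p = 0.0436), a call lost when any 1 library other than 96 h replicate 1 was left out (adjusted p 0.0535 to 0.149). The keratin that rose was KRT20, of differentiated colon surface cells, from 7.48, 5.96 and 7.65 CPM to 14.3, 15.7 and 14 CPM, a log2 change of 1.06 ± 0.13 (edgeR adjusted p = 1.08e-06). KRT6A, KRT6B and KRT6C are close copies, so reads could be split among them.

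Junction genes rose more often than they fell. Of 30 tested 11 rose and 5 fell, with a median of 0.17. With length-dependent scaling 7 rose and 6 fell, with a median of 0.03, and without 48 h replicate 1 or 96 h replicate 2 the rises also numbered 7. TJP3, a tight junction scaffold, rose from 16.1, 16.5 and 16.4 CPM to 73.6, 63.8 and 66.4 CPM, a log2 change of 2.05 ± 0.09 (edgeR adjusted p = 5.02e-13). The desmosome genes DSP, from 178, 190.0 and 176 CPM to 320.0, 299 and 339 CPM, and JUP, from 268, 274 and 257 CPM to 472, 405 and 429 CPM, rose, as did CLDN3 (0.69). EPCAM, an epithelial adhesion molecule (-0.16), did not pass.

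The sign of the median of the next list changed with the scaling. Genes of intestinal differentiation rose in 8 and fell in 4 of 23 cases, with a median of 0.01. Of the 42 listed, 39 were found in the data and 23 were high enough to test. Without 48 h replicate 1, 96 h replicate 2 or 96 h replicate 3 the falls numbered 2, 1 and 0. HNF4A, a nuclear receptor of enterocytes, rose from 5.96, 6.46 and 6.81 CPM to 12.6, 11.3 and 11.8 CPM, HES1, the Notch effector, from 35.1, 33.2 and 30.9 CPM to 64.8, 63 and 68 CPM and DPP4, a brush border peptidase, by 0.77. ELF3, an epithelial transcription factor, rose from 53.4, 52.8 and 51.8 CPM to 120.3, 105 and 103 CPM. HCT116 carries an activating beta-catenin mutation, and beta-catenin targets were split, with 6 of 20 higher and 7 lower and a median that length-dependent scaling turned from 0.11 to -0.05. SOX4 (0.72), EPHB2 (0.92) and RNF43 (0.83) rose, and DKK1, a secreted Wnt antagonist, fell from 978, 921 and 959 CPM to 529, 587 and 505 CPM.

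Among targets of YAP and TEAD, which are switched off in dense cultures, 8 of 29 fell, 4 rose and 17 did not pass, with a median of -0.15. CYR61, a matricellular protein and a common readout of YAP, fell from 21.2, 22.7 and 19 CPM to 7.79, 7.01 and 6.82 CPM, a log2 change of -1.54 ± 0.11 (edgeR adjusted p = 4.80e-10). THBS1 (-1.37) and FJX1 (-1.09) fell as well, and ARHGEF17, a guanine nucleotide exchange factor, rose by 1.03. A share of 8 of 29 lower is near the 20.8% of all tested genes, and length-dependent scaling gave 11 lower with a median of -0.36. Without 48 h replicate 3 the rises numbered 2, and without 48 h replicate 2 or 96 h replicate 2 the median was -0.09 or -0.06.

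Mesenchymal genes rose in 8 of 16 cases and fell in 1, with a median of 0.94, which was 0.39 over the 13 that could be tested in the 6 wild-type libraries alone and 0.43 over the 11 with at least 1 CPM in 3 libraries. FN1, fibronectin, rose from 15.6, 17.7 and 15.4 CPM to 44.8, 41.9 and 44.1 CPM, a log2 change of 1.43 ± 0.10 (edgeR adjusted p = 3.51e-10). LOXL2, a collagen crosslinking oxidase, rose from 13.2, 13.4 and 12.9 CPM to 41.5, 41.5 and 39.7 CPM after 127 and 121 CPM at 24 h, MMP14, a membrane protease, changed by 0.97 and TAGLN, an actin-binding protein, by -0.85. Of the transcription factors that define the program, TWIST1 (1.01), ZEB1 (0.36), SNAI2 (-0.65) and SNAI1 (-0.02) did not pass. Of 18 TGF-beta targets 8 rose and 3 fell, with ID1 higher by 0.62 and BAMBI lower by 0.71, and the median went from 0.21 to 0.33 with abundance-dependent scaling.

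Signalling and immune lists were mixed. Of 22 ERK feedback genes 9 rose and 6 fell: DUSP6, the ERK phosphatase, went from 71, 65 and 62.1 CPM to 124, 119 and 129 CPM, SPRY4 changed by 0.89, LIF by 0.98 and HBEGF by -0.87. Without 48 h replicate 3 or 96 h replicate 1 the falls of this list numbered 3. Immediate early genes rose in 8 of 25 cases and fell in 3, with EGR1 at 111, 128 and 112 CPM against 202, 175 and 207 CPM and FOSL1 at 270.4, 283 and 285 CPM against 128, 121 and 129 CPM. Interferon-stimulated genes rose in 17 of 45 and fell in 6, with a median of 0.17, or 0.02 under abundance-dependent scaling. IRF9, of the ISGF3 complex, rose from 14.5, 12.3 and 14.1 CPM to 26.1, 22.1 and 22.4 CPM, ISG20 by 0.86 and the low IFIT1 by 1.47.

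NF-kappaB targets rose in 8 of 24 and fell in 3. TNFAIP2 rose from 59.6, 58.9 and 55.9 CPM to 89.4, 87.4 and 85.4 CPM and BIRC3, an inhibitor of apoptosis, from 1.64, 2.32 and 2.39 CPM to 5.35, 5.91 and 4.96 CPM. Antigen presentation genes rose in 7 of 20 and fell in 3, with TAP2, a peptide transporter subunit, lower by 1.00 and TAPBP, tapasin, higher by 0.48. Secreted defence and complement genes split evenly, 4 higher and 4 lower of 15, with S100A2 at 24, 27.8 and 29.9 CPM against 9.26, 9.48 and 11 CPM.

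CYP24A1, the hydroxylase that inactivates vitamin D and a direct target of its receptor, rose from 58.8, 60.6 and 54.5 CPM to 201, 197 and 200.1 CPM, a log2 change of 1.78 ± 0.08 (edgeR adjusted p = 1.80e-12), after 10.2 and 11.3 CPM at 24 h. The receptor gene VDR fell from 29.5, 27.6 and 23.7 CPM to 18.4, 16.7 and 16.8 CPM, and 4 of 9 genes of the response rose, or 2 of them without 96 h replicate 2. Of 8 metallothionein and zinc export genes, which bind or move zinc, 3 fell, 2 rose and 3 did not pass, and the median of -0.14 ran from -0.35 without 48 h replicate 1 to -0.01 without 96 h replicate 2. MT2A stood at 826 and 834 CPM at 24 h, 264, 280.1 and 255 CPM at 48 h and 149, 145 and 149 CPM at 96 h. MT1E (-1.04) and MT1X (-0.72) also fell from 48 h to 96 h, and SLC30A1, a zinc exporter, rose by 0.51, a call lost under abundance-dependent scaling (0.30, adjusted p 0.064). The metallothionein genes are close copies, so their reads could be split among them.

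Lysosome and autophagy genes rose in 16 of 37 cases and fell in 9, with a median of 0.17. WIPI1, of the early autophagosome, rose from 19.4, 18.9 and 19 CPM to 39.6, 41 and 38.6 CPM and GABARAPL1, which coats autophagosomes, from 31.7, 31.4 and 30.7 CPM to 57.5, 57.4 and 58.5 CPM. GLA, a lysosomal galactosidase, fell from 49.9, 50.1 and 52 CPM to 23.3, 24.2 and 21.8 CPM and ATP6V0D1, of the proton pump, by 0.91.

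Splicing factors of the SR and hnRNP families fell in 19 of 34 cases and rose in 4, with a median of -0.23, or 10 falls and a median of -0.08 with abundance-dependent scaling. HNRNPM fell from 556, 539 and 513 CPM to 240.2, 222 and 267 CPM, a log2 change of -1.14 ± 0.08 (edgeR adjusted p = 2.57e-10), and SRSF7 (-0.61), SRSF3 (-0.60) and SRSF1 (-0.53) by less. Small nucleolar RNA host genes SNHG7 (-1.02) and SNHG12 (-0.63) fell, as did the host gene of miR-22, MIR22HG (-0.91).

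NORAD, the RNA that the series repressed, was present throughout in wild-type cells. It stood at 159, 158 and 166 CPM at 48 h and 189.6, 193 and 192 CPM at 96 h, a log2 change of 0.25 ± 0.10 (edgeR adjusted p = 0.0416), and the sets did not overlap. That call was lost when any 1 of the 6 libraries was left out (adjusted p 0.0575 to 0.107), and under length-dependent scaling the change was 0.06. Of the proteins known to bind NORAD, PUM2 (0.36), a Pumilio repressor, was higher, though not with length-dependent scaling (0.15, adjusted p 0.0879), PRPF19, a splicing-associated ubiquitin ligase, fell from 317, 319.5 and 288 CPM to 162, 158 and 161 CPM, and TOP1, a topoisomerase (0.05), RBMX (-0.08) and ALYREF (-0.49) did not pass. CDC5L, which works with PRPF19 in the spliceosome, changed by -0.26 (edgeR adjusted p = 0.0109), and did not pass without 48 h replicate 1 (0.0524) or without 96 h replicate 1 (0.069). In the knockdown libraries NORAD stood at 22.2, 18.5 and 25.7 CPM at 48 h and 84.1, 76.4 and 69.7 CPM at 96 h, under every wild-type library, and its change there was 1.79.

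The knockdown libraries covered the same hours in other cells. The 2 changes share no library, but the knockdown libraries entered the estimate of spread behind the wild-type errors and calls, which were 5518 higher and 4583 lower without knockdown 48 h replicate 3. From 48 h to 96 h 5340 genes rose in them (27.0%) and 4832 fell (24.4%). Over the 19766 genes the wild-type and knockdown changes had a Pearson correlation of 0.65 and a Spearman correlation of 0.69, across genes, which are not independent. Of the wild-type risers 74.1% were called higher in the knockdown as well, and of the knockdown risers 69.9% were called higher in wild type. For falls the shares were 67.7% and 57.5%. Opposite calls were few, with 45 genes higher in wild type and lower in the knockdown and 88 the reverse. The difference between the genotypes' changes was tested as an interaction, and 2078 genes passed (10.5%), of which 851 changed more upward in wild type (4.31%) and 1227 more downward (6.21%). The interaction was not repeated under other settings, nor without knockdown 48 h replicate 3, which stood apart.

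Mitotic genes fell less in wild type. The median change of the list was -0.75 in wild type and -1.36 in the knockdown, and 42 of 50 members passed the interaction test in that direction. CDCA3 changed by -1.21 and -1.96 in the respective genotypes, and AURKB by -1.17 and -1.80. For replication genes the medians were -0.81 and -0.93, with 7 of 49 members passing in that direction and 1 in the other. In knockdown 48 h replicates 1, 2 and 3 the mitosis list median was -0.24, -0.26 and -0.02, relative to the wild-type mean of 48 h.

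Ribosome biogenesis genes fell more in wild type. Their median was -0.66 against -0.15 in the knockdown, and 24 of 35 passed the interaction test. The 48 h levels already differed: the median log2 level of this list in the knockdown libraries of 48 h lay 0.57 to 0.82 under the wild-type mean of 48 h. At 96 h the knockdown libraries lay 0.83 to 0.88 under that same reference and the wild-type libraries 0.65 to 0.66 under it. Keratins also fell more in wild type, with medians of -1.20 and 0.06 and 11 of 18 members passing, among them KRT20, which rose in both. Their 48 h levels differed too: relative to the wild-type mean of 48 h, the keratin median lay at -0.74 to -0.58 in the knockdown libraries of 48 h. At 96 h it lay at -0.83 to -0.66 in the wild-type libraries and -0.84 to -0.74 in the knockdown libraries. These library levels were computed with a constant added to CPM, so they are not on the scale of the -1.20 and 0.06. CYP24A1 rose by 1.78 in wild type and 3.49 in the knockdown, SCD by 1.88 and 2.91, and KRT20 by 1.06 and 2.81. Clock genes (1.14 and 1.11), sterol genes (0.39 and 0.38) and p53 targets (0.56 and 0.66) are given with their medians in wild type and knockdown, and among them 1, 0 and 6 members passed.

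**Figure D4:**
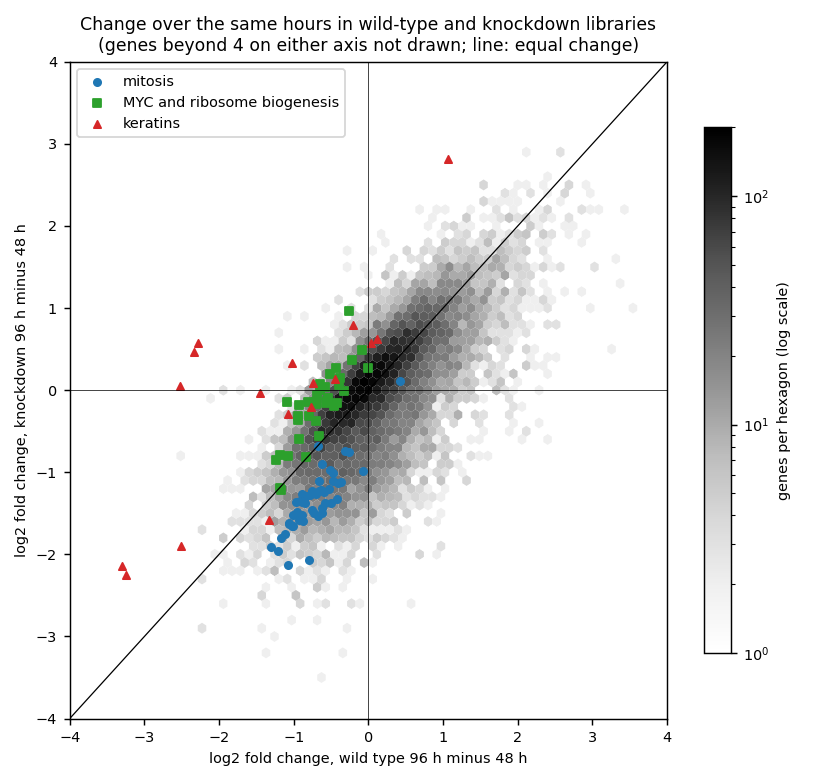
Log2 fold change from 48 h to 96 h in wild-type libraries (horizontal axis) and in knockdown libraries (vertical axis), with all tested genes as grey hexagons and 3 lists as coloured points. The mitosis genes lie under the line of equal change, at medians of -0.75 and -1.36, and the ribosome biogenesis genes above it, at -0.66 and -0.15.

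For most of these lists 48 h was not a midpoint between 24 h and 96 h. Here too time cannot be told apart from library set, and wild type at 24 h had 2 libraries. From 24 h to 48 h 8698 genes were called in wild type (44.0%), 4182 higher (21.2%) and 4516 lower (22.8%), and this comparison shares its 48 h libraries with the one above, so the directions are not independent. Replication genes had a median change of 0.54 from 24 h to 48 h and -0.81 from 48 h to 96 h, and mitosis genes 0.46 and -0.75. Quiescence and FOXO targets changed by -1.57 and then 1.07, and clock genes by -0.71 and then 1.14. Relative to the wild-type mean of 48 h, the quiescence list lay at 1.26 to 1.33 in the 24 h libraries and 1.00 to 1.07 in those of 96 h. The sterol list lay at 1.96 to 2.06 and 0.35 to 0.48, and the hypoxia list at 2.04 to 2.07 and 0.23 to 0.48. Mitochondrially encoded RNAs had the same sign in both intervals, with medians of 1.03 and 0.56.

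**Figure D5:**
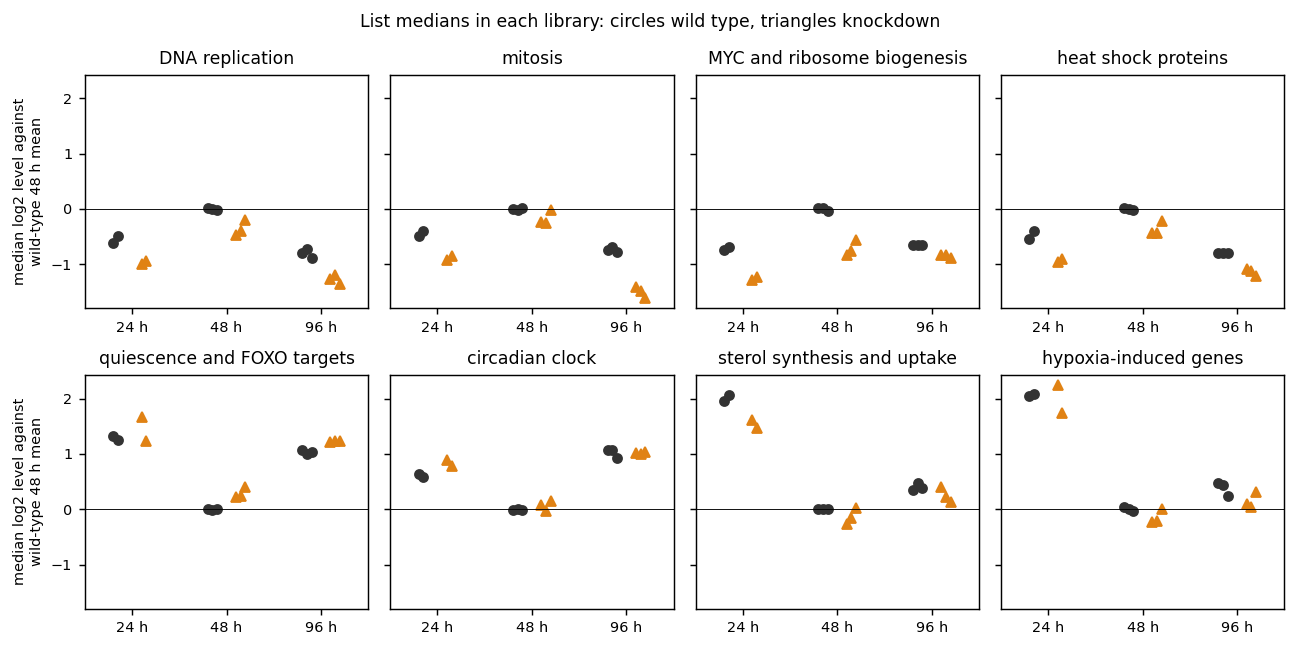
Median log2 level of the members of 8 lists in each library, relative to the mean of the wild-type 48 h libraries (vertical axis), at 24, 48 and 96 h, with circles for wild type and triangles for knockdown. In wild type the replication list lies at -0.61 to -0.49 at 24 h and -0.88 to -0.73 at 96 h, and the quiescence list at 1.26 to 1.33 and 1.00 to 1.07.

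The change also moved with transcript length. Among 10919 genes with a mean of at least 5 CPM, split by length into 5 equal groups with medians of 1205, 2025, 2851, 3983 and 6281 bases, the median log2 change was -0.23, -0.14, -0.05, 0.07 and 0.21. In the knockdown libraries it was -0.05, -0.02, 0.05, 0.12 and 0.21. Its part in the results was not tested. The median length was 2818 bases in the mitosis list, 3349 in the quiescence list and 3822 in the clock list, and with length-dependent scaling the medians of these lists were -0.85, 1.05 and 0.96. That scaling also turned the sign of some small list medians. They were those of the beta-catenin (0.11 to -0.05), ERK feedback (0.05 to -0.02), integrated stress (0.06 to -0.01) and intestinal (0.01 to -0.09) lists.

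Transcript usage, the share of a gene's counts that each of its transcripts takes, differed for 1864 of 11113 genes (16.8%; limma, adjusted p under 0.05 per gene). The count depended on the libraries: it was 739 with the 6 wild-type libraries alone and 2575 without knockdown 48 h replicate 3. Without 48 h replicate 1 or 3 it was 1005 or 811, and without 96 h replicate 1, 2 or 3 it was 740.0, 1023 or 946. The estimates also share reads between similar transcripts. In IVD, a dehydrogenase of leucine breakdown, transcript IVD-206 took 0% of counts in each 48 h library, 18.7, 13.9 and 14% in the 96 h libraries and 13.8 and 17.4% in those of 24 h. In EXD3, an exonuclease-domain gene, transcript EXD3-203 went from 45.4, 47.5 and 52.5% to 11, 10 and 10.6%. RPS10-NUDT3, a readthrough of 2 genes, had RPS10-NUDT3-201 at 88.9, 88.5 and 89.5% and 57.5, 59.1 and 52.3%. L1CAM, a neural adhesion molecule, and ATP2C1, a Golgi calcium pump, completed the 5 genes with the lowest p: L1CAM-203 was at 0% in each 48 h library and 15.4, 10.4 and 13.5% in those of 96 h, and ATP2C1-208 was at 14.7, 7.26 and 13.1% and then at 0% in each. The knockdown libraries had the same pattern. IVD-206 and L1CAM-203 were at 0% in each of 48 h and above 0% in each of 24 h and 96 h. ATP2C1-208 was above 0% in each knockdown library of 48 h and at 0% in each of the other times, as in wild type at 24 h. A transcript listed at 0 in a whole set can be a failed estimate. Retained-intron transcripts held 4.21, 4.39 and 4.38% of counts at 48 h and 4.64, 4.54 and 4.78% at 96 h, and nonsense-mediated-decay transcripts 2.71, 2.79 and 2.7% and 2.62, 2.53 and 2.6% (exact two-sided permutation p = 0.1 for each, the smallest possible).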

How the data were processed

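Transcript-level estimated counts came from the deposited tables of 16 libraries; per the submitters' processing notes the authors used kallisto, DESeq2 and the build hg19, with versions not given in the sources used here. Of 166096 transcripts, 156583 were matched by Ensembl ID to GENCODE 29 (GRCh38), whose gene positions are printed. The unmatched ones held 2.75 to 3.40% of counts. The 159 matched transcripts with 31 or more consecutive A or T were left out, and the rest were summed to 31481 genes. Gene sums, which hold fractions, were rounded to whole counts. The gene test was edgeR 4.0.16 (robust quasi-likelihood, TMM scaling, low-count filter on the 6 groups, 10 residual degrees of freedom) over all 16 libraries, with Benjamini-Hochberg adjustment over 19766 genes and a threshold of 0.05. Printed CPM use TMM library sizes. List levels per library are medians of log2 of CPM plus 0.5, while list changes are medians of edgeR log2 changes. The test was checked on simulated counts. Usage was tested with limma 3.58.1 on log2 ratios with 0.5 counts added, over transcripts with at least 10% of genes averaging at least 100 counts. Within each group, counts of replicate libraries varied beyond counting error. The chi-square per degree of freedom was 5.12 to 18.8 in the wild-type groups, highest at 96 h in the pairs with replicate 2. In the knockdown groups it was 7.98 to 43.7, highest at 48 h.

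Named genes are the 15 largest called rises and falls of at least 5 CPM, the 6 largest of at least 100 CPM (libraries of both times not overlapping), up to 4 members per list with the lowest p, NORAD, and the 5 usage genes with the lowest p; others are named for a small count or as singled out after their values were seen. The members and the 44 lists were chosen with earlier results of these data known, and a few genes the rule names are not reported here. Alternatives changed the scaling, filter, tool (DESeq2 1.42.0), libraries, replicate block and the run filter. Length-dependent scaling and leaving out knockdown 48 h replicate 3, which stood apart, were chosen after seeing the data.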

Additional observations from a re-analysis of the deposited data

Results flagged for a closer look

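For 64 of the genes named above the change from 48 h to 96 h in wild type differed from that in the knockdown, by the interaction contrast of the edgeR fit at an adjusted p of 0.05, which 10.5% of all tested genes passed. The values below are the wild-type log2 change minus the knockdown log2 change. They were positive for 28 genes and negative for 36. The interaction was not repeated under the alternatives or without knockdown 48 h replicate 3.

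Among genes of mitosis and DNA synthesis, all of which but ASPM fell in wild type, the difference was 0.76 for CDCA3, 0.63 for AURKB, 0.60 for UBE2C, 0.56 for PLK1, 0.45 for SKA3, 0.37 for TACC3, 0.90 for ASPM, 0.59 for CLSPN, 0.38 for CDC45, 0.34 for GINS2, 0.40 for FANCI, 0.38 for RAD54L, 1.65 for HIST1H4C and 1.23 for HIST2H2AC. Among ribosome biogenesis genes, their regulators and RNA-processing genes it was -1.22 for MYC, -0.58 for HEATR1, -0.40 for LYAR, -0.40 for GRWD1, -0.44 for SNHG7, -0.39 for SRSF7 and -0.39 for RBMX. Among keratins and their partners it was -0.82 for KRT8, -0.58 for KRT18, -1.01 for KRT19, -1.75 for KRT20, -1.0 for KRT80 and -0.61 for KRTAP2-3. Among other epithelial and Wnt-related genes it was -0.53 for CLDN3, -0.48 for ELF3, -0.59 for EPCAM, -0.85 for EPHB2, -0.56 for RNF43 and -0.44 for SOX4.

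Among genes of quiescence, p53 and the clock it was 0.84 for MXD4, 0.39 for YPEL5, 0.87 for SESN3, -0.70 for ARRDC4, -0.56 for BBC3, -0.40 for AEN, -0.47 for TNFRSF10A, -0.57 for TRIAP1 and 1.11 for CIART. Among metabolic and redox genes it was -1.03 for SCD, -0.49 for SREBF1, 0.65 for LPIN1, -1.71 for CYP24A1, -0.43 for NQO1 and 1.41 for AKR1C3. Among the other named genes it was -0.67 for ADORA2B, 0.51 for AHNAK2, 0.45 for ARHGEF17, -0.47 for ATAD3B, 1.01 for COL1A1, 0.78 for EGR1, -0.44 for FARSA, -1.07 for FJX1, -0.39 for FOSL1, 0.48 for KDM4B, 0.77 for MIR22HG, -0.45 for NIPSNAP1, -1.54 for NORAD, -0.35 for PMS2, 0.67 for PNRC1 and 1.30 for PPFIA4.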

How the results depend on the processing

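For the 209 genes named, 22 alternatives gave 4586 values: 4437 had the direction and the side of the threshold of the reported fit, 74 lost the call, 53 gained one and 22, all of genes that did not pass, changed sign. The reversed values were, for CAD, 0.0052 (total counts), 0.038 (upper quartile), 0.138 (abundance-dependent scaling), 0.0061 (CPM of at least 1) and, over single libraries left out, -0.0499 to 0.0359. For MT-ND2 they were -0.017 (DESeq2 size factors), -0.017 (DESeq2), -0.00136 (the 6 wild-type libraries), -0.0029 (the 12 libraries of 48 h and 96 h), -0.0031 (replicate block on the 6), -0.012 (runs kept) and, over single libraries left out, -0.021 to 0.055. Leaving out single libraries gave -0.898 to 0.162 for ALYREF, -0.275 to 0.021 for RPA3 and -0.066 to 0.027 for SNAI1. Other reversed values were 0.073 for RBMX (abundance), 0.0052 and 0.0598 for SOD2 (upper quartile, abundance), 0.022 for SNAI1 (upper quartile) and -0.056 for TOP1 (length-dependent scaling). Of 24 lists with a median of at least 0.2 on the log2 scale, 23 had the same sign under every alternative, and the endothelial markers turned to -0.024 and -0.021 with the 6 wild-type or the 12 libraries. The falls of at least 2-fold numbered 886 under abundance-dependent scaling, and 2616 genes fell under a test against a 1.2-fold change. Leaving out each wild-type library gave 4404 to 4585 rises and 3590 to 3785 falls. Same-numbered libraries of 48 h and 96 h did not deviate together over all genes (r 0.038, -0.085 and 0.029). That check cannot show whether a pairing acted on part of the genes. With a replicate block the counts were 4860 and 3913, or 4863 and 4624 with the 6 wild-type libraries, and the block ended the calls of NORAD, KRT19 and CRYAB, or in the 6 alone those of HSPA4 and SEMA6B, and of no other of the 209 genes. Usage calls were 739 with the 6 libraries, 1201 with a replicate block, 513 of 7345 genes by diffSpliceDGE, 740.0 to 1771 without single libraries, and 2575 without knockdown 48 h replicate 3. With runs kept, the composition differences were -0.094 percentage points for decay transcripts, 1.2 for protein-coding ones and 3.5 for the 10 most abundant genes, against -0.15, 0.008 and 4.66. The causes were not tested. At 36610474 to 51853876 counts per library, a single transcript at 0 still allows no fold, and depth does not separate time from other differences between the library sets.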
